A study of Rattus norvegicus with 15 samples.

Results

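Gene expression in the nucleus accumbens was compared between rats after 30 days of withdrawal from cocaine, without a behavioural test (30W), and rats that had self-administered saline (Sal). The comparison rests on 6 of the study's 15 arrays, chosen by their labels, 3 for 30W and 3 for Sal. It was described across the 14497 genes whose probe sets carry 1 gene symbol, of which 11778 gave a signal high enough to be tested. The study asks about the incubation of cocaine craving. All animals were male Sprague-Dawley rats that had been given a jugular vein catheter. The 30W rats self-administered cocaine at 0.75 mg/kg per infusion for 6 h a day over 10 days, with a light cue at each infusion, and then spent 30 days without the drug. The Sal rats had saline in place of cocaine under the same conditions, and their labels give neither a withdrawal time nor a test. Time since the last session and age at tissue collection therefore cannot be told apart from cocaine in this comparison, as far as the labels go. The other groups, used here only where named, were taken 1 day into withdrawal without a test (1W), or after an extinction test at 30 days (30C) or 1 day (1C). Whether the RNA on an array came from 1 rat or was pooled is not stated in the labels, and p-values measure only the spread between these arrays.

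The nucleus accumbens is the ventral part of the striatum, where dopamine and glutamate inputs meet on inhibitory medium spiny neurons. Cue-induced cocaine seeking grows over weeks of abstinence, and in rats this incubation has been linked to changes of glutamate receptors on these neurons. Microglia, astrocytes, oligodendrocytes and vessel cells share the tissue. In brain cells, interferons signal through JAK kinases and STAT factors to switch on genes for antiviral proteins, antigen presentation and chemokines.

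Values are log2 intensities made with RMA, which adjusts background, brings arrays close to 1 distribution and gives 1 value per probe set. A difference of 1 is a 2-fold change in signal. Probes differ in brightness, so a gene's signal was not read as its amount of RNA relative to another gene, and genes were divided by mean signal only to describe where on the intensity scale the calls fell. Correlations between pairs of the 6 arrays lay between 0.9931 and 0.9962. The tissue markers were those of striatum. Drd1, the dopamine receptor of direct pathway neurons, was at 10.16, 10.09 and 10.24 on the 30W arrays, against 10.03, 10.16 and 9.81 on the Sal arrays. Ppp1r1b, the phosphatase inhibitor DARPP-32 of medium spiny neurons, was between 12.20 and 12.30 on the 30W arrays, against values between 12.11 and 12.29 on the Sal arrays.

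Some arrays stood apart in markers of neighbouring tissue. Slc17a7, the vesicle transporter that loads glutamate in cortical neurons, was at 11.22, 11.00 and 11.04 on the 30W arrays, against 7.16, 11.52 and 12.02 on the Sal arrays. The score of the 17 measured cortical projection neuron markers, their mean deviation from the average over all arrays, was 0.18, -0.08 and -0.04 on the 30W arrays, against -1.05, 0.36 and 0.63 on the Sal arrays. Sal replicate 1 was thus low in cortical markers and Sal replicates 2 and 3 were high, with all 30W arrays in between. Ttr, the transthyretin of the choroid plexus, was at 5.86, 6.23 and 10.20 on the 30W arrays, against 6.64, 5.99 and 6.42 on the Sal arrays, so 30W replicate 3 alone was high. Hbb, a haemoglobin chain that marks blood, overlapped between the groups, as did Mbp of oligodendrocytes and Gfap of astrocytes. The part of these tissue differences in the results below was not tested beyond leaving arrays out and using the cortical score as a covariate.

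No gene passed the threshold between 30W and Sal. In limma, 0 of 11778 genes (0%) had an adjusted p under 0.05, and the smallest adjusted p was 0.292. At an unadjusted p under 0.05 there were 895 genes, against 589 that chance alone would give. Of these, 500 were higher in 30W (4.25%) and 395 were lower (3.35%). Every 30W array lay above every Sal array for 762 genes (6.47%), and below every Sal array for 847 genes (7.19%). Differences were small. The median size of the log2 change was 0.05, and 95% of genes lay below 0.21. A change of 1.5-fold or more was seen for 9 genes higher in 30W and 4 genes lower. The 9 were the chemokines Cxcl9, Cxcl10 and Cxcl11, the guanylate-binding proteins Gbp2 and Gbp5, the death ligand Tnfsf10, the glycoprotein gene Lrg1, Ttr and Slc17a7. The 4 were Ubxn2a, Sult1c2, Or4a72 and Or5p60b. Only Cxcl10, Cxcl11 and Ttr reached 2-fold.

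The split between higher and lower genes depended on how the arrays were scaled. After the deposited values, with 500 higher and 395 lower, centring each array on its median gave 734 higher and 196 lower, and a further quantile normalization gave 396 higher and 454 lower. With arrays weighted by their quality there were 706 higher and 823 lower. With a filter at the 50th percentile in place of the 30th there were 224 higher and 329 lower. Without Sal replicate 3, which had more cortical marker signal than the other 5 arrays, there were 436 higher and 599 lower. Counts of genes in either direction are therefore not read as a balance of activation and repression. The background for every count of list members below is the share of all genes at an unadjusted p under 0.05, 4.25% higher and 3.35% lower, and 5234 of the 11778 genes had a positive log2 change and 6544 a negative one.

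Genes higher in 30W lay mostly at the dim end of the array. When the tested genes were divided into 4 equal parts by their mean level, the dimmest part held 320 of the 500 higher genes, 10.9% of its own genes, and 105 of the 395 lower genes. The brightest part held 12 higher genes (0.407% of its genes) and 69 lower genes. The median log2 change was 0.04 in the dimmest part, and -0.01, -0.03 and -0.02 in the next 3 parts. The 25th percentile of all probe sets was 5.55, 5.59 and 5.54 on the 30W arrays, against 5.52, 5.51 and 5.56 on the Sal arrays, which overlapped. Their median was 6.934, 6.966 and 6.927 on the 30W arrays, against 6.913, 6.904 and 6.913 on the Sal arrays, which did not overlap. The count of 320 was 192 after a further quantile normalization, 199 without 30W replicate 2 and 418 after median centring. The part of signal near background in these calls was not tested.

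**Figure D1:**
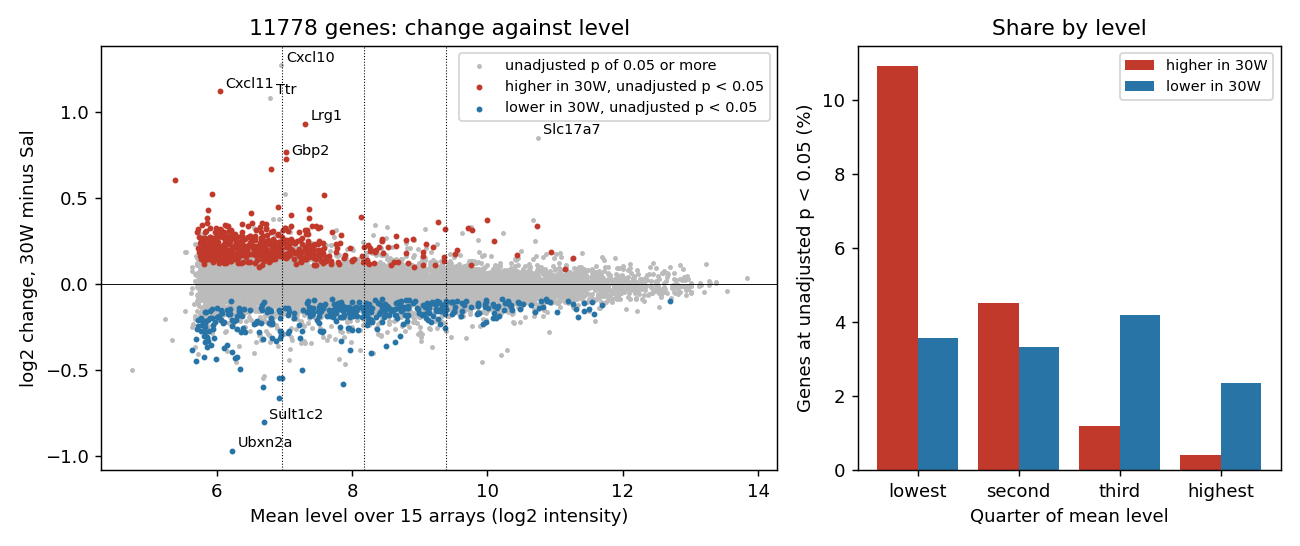
Left, the log2 change of each tested gene (30W minus Sal, vertical axis) against its mean log2 intensity over 15 arrays, with genes at unadjusted p under 0.05 coloured by direction and dotted lines between the 4 level parts. Right, the percentage of genes at unadjusted p under 0.05 in each level part, higher in 30W and lower in 30W, where the dimmest part has 10.9% higher genes and the brightest 0.407%.

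Among the 12 genes with the smallest p that were higher on every 30W array, log2 changes ran from 0.25 to 0.44, and none passed the adjusted threshold. Dnaja4, a co-chaperone of the HSP70 system, was at 7.69, 7.58 and 7.70 on the 30W arrays, against 7.28, 7.33 and 7.37 on the Sal arrays. Its log2 change was 0.33 (SE 0.06, adjusted p = 0.292 in limma). The 1W arrays lay between 7.56 and 7.60 for Dnaja4, and 30W differed from 1W by 0.08 (SE 0.06, adjusted p = 0.676). Chchd2l3, a gene with a close relative in Chchd2, was at 10.11, 10.20 and 10.29 on the 30W arrays, against 9.80, 9.88 and 9.81 on the Sal arrays. Chchd2l3 was 0.37 higher in 30W (SE 0.07, adjusted p = 0.292). Pde11a, a phosphodiesterase that breaks down cAMP and cGMP, was at 7.45, 7.78 and 7.47 on the 30W arrays, against 7.18, 7.12 and 7.10 on the Sal arrays, with a log2 change of 0.44 (SE 0.09). Across the alternative processing settings given at the end, the log2 change was as low as 0.18 for Pde11a and 0.20 for Chchd2l3.

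Plvap, a protein of fenestrated endothelium, was at 6.39, 6.33 and 6.34 on the 30W arrays, against 6.14, 6.06 and 5.99 on the Sal arrays. Tal1, a transcription factor of the blood and endothelial lineages, was at 6.24, 6.38 and 6.24 on the 30W arrays, against 6.05, 5.89 and 5.88 on the Sal arrays. Both genes were about as high on the 1W arrays, where Plvap lay between 6.28 and 6.37 and Tal1 between 6.21 and 6.31. Krt73, a hair follicle keratin, was at 6.40, 6.37 and 6.32 on the 30W arrays, against values between 6.08 and 6.09 on the Sal arrays. The homeobox genes Hmx1 and Evx1 and the growth factor Fgf4 were higher by 0.35, 0.28 and 0.31. Cgnl1, a junction protein, Znrf4, an E3 ligase, and Cybrd1, a ferric reductase, were higher by 0.25, 0.33 and 0.26. All signals of these last 3 genes were between 6.48 and 7.02 on the 6 arrays. The log2 change of Cybrd1 was as low as 0.11 across the alternative settings.

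The larger differences came with more spread between arrays. Lrg1, a secreted glycoprotein that promotes vessel growth, was at 7.69, 7.15 and 7.88 on the 30W arrays, against 6.18, 6.95 and 6.79 on the Sal arrays, a log2 change of 0.93 (SE 0.26, adjusted p = 0.44 in limma). The Lrg1 groups did not overlap, and 1W arrays lay between 7.20 and 7.52. Slco2a1, a prostaglandin transporter, was higher by 0.52 (SE 0.22), and Mixl1, a homeobox gene, by 0.43 (SE 0.10). Of the 17 genes named here for smallest p or largest change in this direction, counting Cxcl9 and Cxcl11 below, 12 were in the dimmest part.

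Of the 12 genes with the smallest p that were lower on every 30W array, 5 were olfactory receptor genes, described further on. Sult1c2, a sulfotransferase, was at 6.62, 6.00 and 6.27 on the 30W arrays, against 7.11, 6.97 and 7.22 on the Sal arrays. Its log2 change was -0.81 (SE 0.18, adjusted p = 0.344 in limma), and the 1W arrays lay between 6.45 and 6.73. Ubxn2a, an adaptor of the p97 segregase, had the largest negative log2 change of the genes with separate groups, -0.97 (SE 0.38, adjusted p = 0.562). Ubxn2a was at 5.35, 6.08 and 5.83 on the 30W arrays, against 6.48, 6.69 and 7.00 on the Sal arrays.

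Other genes in this direction had smaller differences. Eefsec, the elongation factor that delivers selenocysteine to the ribosome, was at 9.50, 9.53 and 9.48 on the 30W arrays, against 9.69, 9.75 and 9.64 on the Sal arrays, a log2 change of -0.19 (SE 0.05). Mapk1ip1l was at 9.88, 9.73 and 9.79 on the 30W arrays, against 10.10, 9.99 and 9.98 on the Sal arrays, and Spata33, known from testis, was lower by 0.24. Rpl15, a protein of the large ribosomal subunit, was at 7.19, 7.45 and 7.29 on the 30W arrays, against 7.59, 7.55 and 7.62 on the Sal arrays. Its 1W arrays lay between 7.65 and 7.69. Nup37 of the nuclear pore was lower by 0.28, and Ska3, which holds microtubules to kinetochores, was lower by 0.50 (SE 0.13). Tspan18, a tetraspanin, was at 6.57, 6.62 and 6.70 on the 30W arrays, against 7.64, 6.99 and 6.90 on the Sal arrays, with 1 Sal array well above the others. LOC108353138, which has no other name in the table used, was lower by 0.58 (SE 0.20).

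**Figure D2:**
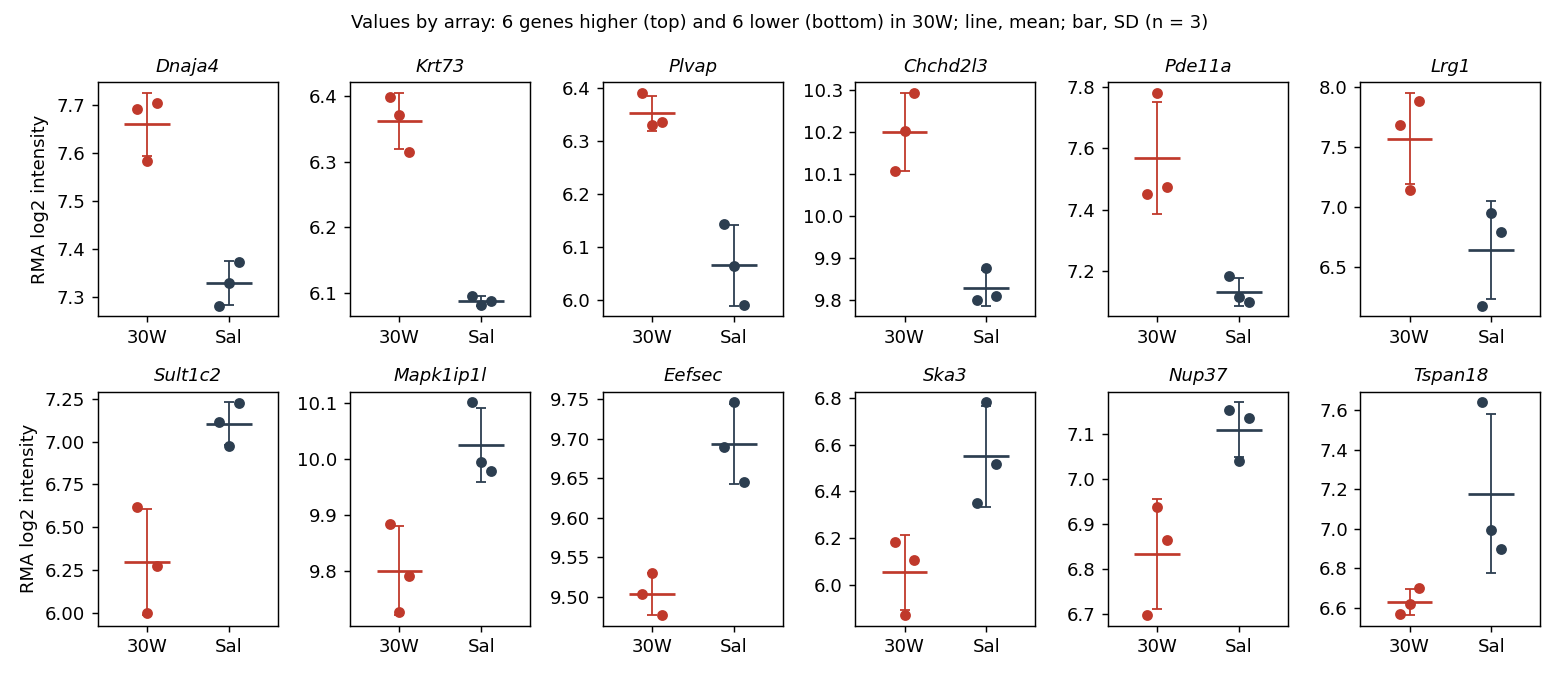
RMA log2 intensity by array (vertical axes, each with its own scale) of 6 genes higher and 6 genes lower on every 30W array, with 30W left of Sal; points are arrays, lines are means and bars are SDs (n = 3). Dnaja4 lies between 7.58 and 7.70 in 30W and between 7.28 and 7.37 in Sal, while Tspan18 in Sal is spread by 1 array at 7.64.

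Interferon-induced genes made up 5 of the 9 genes that were higher by 1.5-fold or more. Of 53 genes listed, 47 were on the array and 40 passed the signal filter. In limma, 0 of the 40 had an adjusted p under 0.05. At an unadjusted p under 0.05, 13 were higher in 30W (32.5%, against 4.25% of all genes) and 1 was lower, and 31 of the 40 had a positive log2 change. The median log2 change was 0.13, against -0.01 over all genes. Every 30W array lay above every Sal array for 11 members (27.5%, against 6.47%). The list is dim, with 25 of its 40 members and 11 of the 13 in the dimmest part of the array, where 10.9% of all genes were higher. In bulk tissue fewer cells of a type and less RNA per cell cannot be told apart, and the same holds for more cells and more RNA.

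The members are described below by 2 patterns across the 30W arrays, which were not sharply divided. The list's score was 0.27, -0.07 and 0.25 on the 30W arrays, against -0.05, -0.08 and -0.08 on the Sal arrays, so 30W replicates 1 and 3 were high and 30W replicate 2 was within the range of Sal. On 30W replicates 1 and 3, 28 members each lay above the highest Sal array (70%), against 17.8% and 25.1% of all genes. On 30W replicate 2, 15 members did (37.5%, against 22% of all genes) and 8 lay below the lowest Sal array. Outside this comparison, 1C replicate 2 had a similar profile, with a score of 0.28 and 29 members above the highest Sal array (72.5%, against 21.1% of all genes). The 30C arrays, also at 30 days of withdrawal, had scores of -0.03, -0.09 and -0.01. On them 35%, 30% and 50% of members lay above the highest Sal array, against 28.3%, 20.1% and 23.8% of all genes. The list's median log2 change from Sal was 0.02 for 30C and 0.01 for 1W, against 0.13 for 30W.

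The first pattern was strong on 2 of the 3 arrays. Cxcl10, a chemokine that draws T cells through the receptor CXCR3, was at 8.51, 6.53 and 8.42 on the 30W arrays, against 6.65, 6.68 and 6.32 on the Sal arrays. Its log2 change was 1.27 (SE 0.61, adjusted p = 0.658 in limma), and its groups overlapped. Cxcl11, a ligand of the same receptor, was at 6.83, 5.89 and 7.76 on the 30W arrays, against 5.84, 5.60 and 5.69 on the Sal arrays, a log2 change of 1.12 (SE 0.38, adjusted p = 0.506). Cxcl9, the third ligand, was at 6.09, 5.30 and 6.08 on the 30W arrays, against 5.28, 5.10 and 5.28 on the Sal arrays. All 3 genes lie side by side on rat chromosome 14. On 30W replicate 2, Cxcl9 and Cxcl11 were only just above the highest Sal array. Cxcl9 was below the 25th percentile of the array on every Sal array and on 30W replicate 2. It passed the signal filter only through 30W replicates 1 and 3 and 1C replicate 2, where it was high. Its place among the 13 higher members, the 11 with separate groups and the 9 genes of 1.5-fold or more therefore rests on that selection.

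The GTPases that attack the vacuoles of intracellular pathogens had the same shape. Gbp2 was at 8.06, 6.71 and 7.65 on the 30W arrays, against 6.87, 6.68 and 6.68 on the Sal arrays, and Gbp5 was at 7.74, 6.61 and 7.40 on the 30W arrays, against 6.55, 6.50 and 6.69 on the Sal arrays. Ifi47 was at 8.17, 7.38 and 8.32 on the 30W arrays, against values between 7.36 and 7.53 on the Sal arrays. Irgm was higher by 0.29 (SE 0.13). Irf1, a transcription factor that interferon gamma induces, was at 7.39, 6.75 and 7.31 on the 30W arrays, against 6.70, 6.77 and 6.64 on the Sal arrays. Tnfsf10, the death ligand TRAIL, is on the list of inflammatory genes, and at 8.06, 6.74 and 7.89 on the 30W arrays, against 6.90, 7.01 and 6.47 on the Sal arrays it too was high on replicates 1 and 3 only.

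The second pattern was smaller, with all 3 arrays of 30W above those of Sal. Psmb8, a catalytic subunit of the immunoproteasome, was at 6.03, 5.92 and 6.08 on the 30W arrays, against 5.76, 5.64 and 5.86 on the Sal arrays, a log2 change of 0.26 (SE 0.06, adjusted p = 0.356 in limma). Bst2, the membrane protein tetherin that holds virus particles at the cell surface, was at 5.97, 5.99 and 6.04 on the 30W arrays, against 5.75, 5.69 and 5.81 on the Sal arrays. Bst2 was between 5.59 and 5.75 on the 1W arrays, 0.33 below 30W (SE 0.06, adjusted p = 0.167). Dtx3l, a ubiquitin ligase partner of Parp9, was at 6.62, 6.72 and 6.70 on the 30W arrays, against 6.48, 6.41 and 6.32 on the Sal arrays. Ifit2, which binds viral RNA, was at 6.94, 6.72 and 7.01 on the 30W arrays, against 6.52, 6.64 and 6.71 on the Sal arrays. Oasl was higher by 0.24, with separate groups. Irf7, the factor that amplifies type I interferon, was left out of this pattern because its groups overlapped. Irf7 was at 7.21, 6.74 and 6.96 on the 30W arrays, against 6.59, 6.66 and 6.75 on the Sal arrays. The dividing line is thin. On 30W replicate 2, Ifit2 was at 6.72 against a highest Sal value of 6.71, and Irf7 at 6.74 against 6.75. Psmb8 and Bst2 gave signals not far above the 25th percentile of the arrays.

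Other antiviral genes had overlapping groups. Rsad2, the antiviral enzyme viperin, was at 6.02, 5.44 and 5.83 on the 30W arrays, against 5.94, 6.06 and 6.12 on the Sal arrays, the 1 member lower at an unadjusted p under 0.05. Log2 changes were -0.04 for Mx2, 0.06 for Isg15, 0.18 for Oas1a and -0.02 for Stat2. The count of 13 higher members was 20 without 30W replicate 2, 7 without 30W replicate 1 and 6 without 30W replicate 3, and it was 6 with the filter at the 50th percentile.

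**Figure D3:**
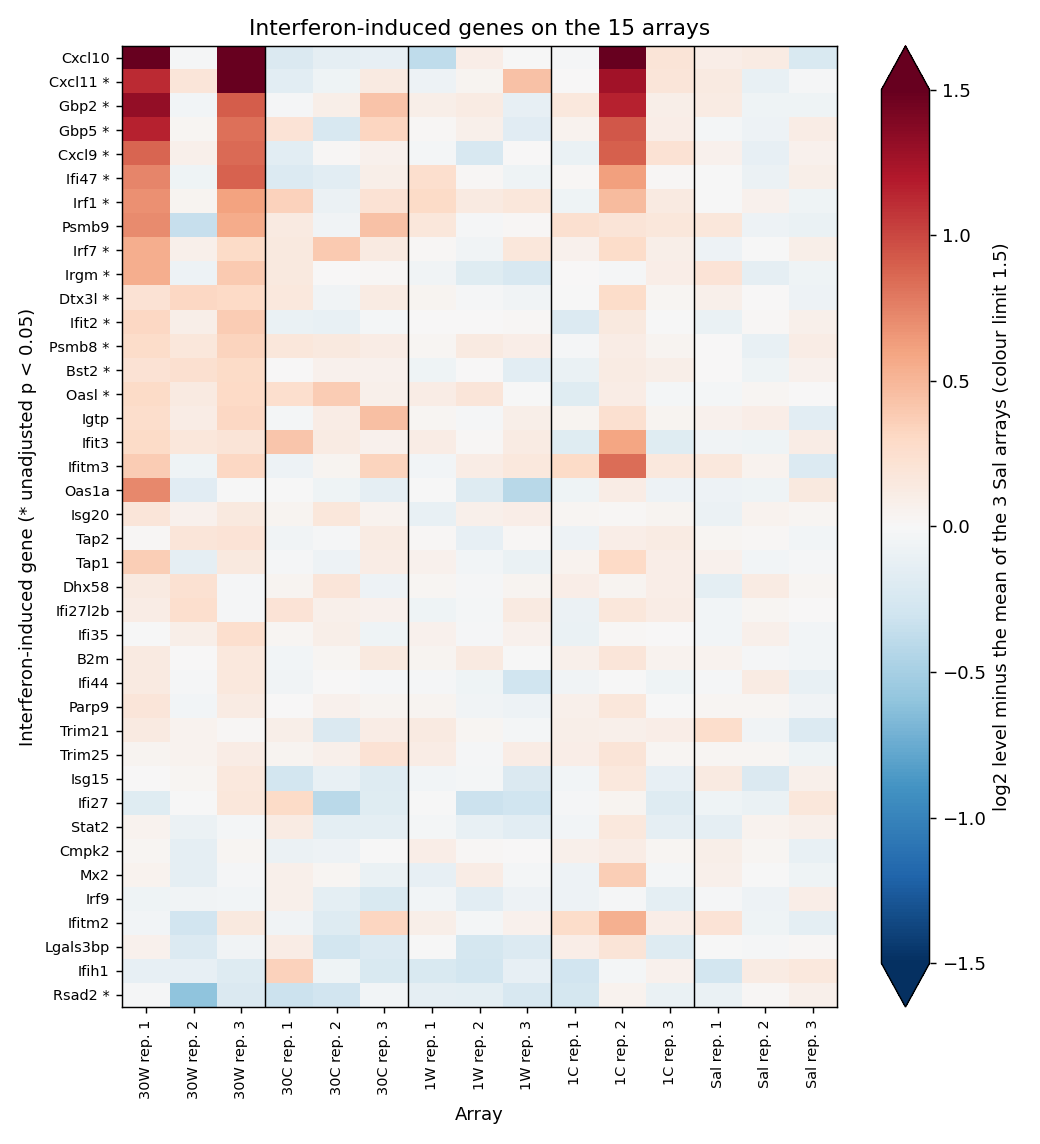
Log2 level minus the mean of the 3 Sal arrays, in colour, for the 40 tested interferon-induced genes (vertical, ordered by log2 change, with an asterisk at unadjusted p under 0.05) on 15 arrays (horizontal, 30W to Sal). The uppermost genes are strong on 30W replicates 1 and 3 and 1C replicate 2, and near 0 on 30W replicate 2.

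The promoters of some of these genes are shown because members moved together and interferon-regulated genes are known for a shared element. RefSeq promoters, from 250 bases before to 50 bases after each gene's start, were searched for the core of the interferon-stimulated response element, GAAANNGAAA, on both strands (TTTCNNTTTC on the other). The core was found in 23 of the 35 tested list members that had a promoter in the table (65.7%), against 282 of 9724 tested genes (2.9%). It was found in 7 of 12 members higher at an unadjusted p under 0.05 (58.3%) and in 16 of the other 23 (69.6%). The higher members Cxcl9, Cxcl11, Irf1, Ifi47 and Oasl had no core in this window. Members were listed as interferon-induced, so the share of 65.7% describes the list and not 30W. Psmb8, Bst2 and Dtx3l, higher on all 30W arrays, and Gbp2 and Cxcl10, high on 2 of them, are given 5′ to 3′ on the gene's strand, with the core in capitals. Coordinates are of GRCr8. In Bst2 a pair of overlapping cores forms 1 run of capitals, in Psmb8 the core begins 4 bases before the start, and in Cxcl10 it lies at the far end of the window.
Psmb8, chr20:4656982-4657281, minus strand: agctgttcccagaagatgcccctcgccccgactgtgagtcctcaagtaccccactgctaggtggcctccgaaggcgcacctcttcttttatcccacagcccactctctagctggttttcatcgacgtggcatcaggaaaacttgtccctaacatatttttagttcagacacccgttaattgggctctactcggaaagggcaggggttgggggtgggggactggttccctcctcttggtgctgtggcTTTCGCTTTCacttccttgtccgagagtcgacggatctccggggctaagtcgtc
Bst2, chr16:18254918-18255217, minus strand: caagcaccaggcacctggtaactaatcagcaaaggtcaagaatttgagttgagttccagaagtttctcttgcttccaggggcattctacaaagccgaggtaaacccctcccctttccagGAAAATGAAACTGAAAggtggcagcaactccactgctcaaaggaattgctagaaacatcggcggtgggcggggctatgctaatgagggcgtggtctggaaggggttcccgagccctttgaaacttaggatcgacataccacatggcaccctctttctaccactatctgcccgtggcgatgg
Dtx3l, chr11:78319975-78320274, plus strand: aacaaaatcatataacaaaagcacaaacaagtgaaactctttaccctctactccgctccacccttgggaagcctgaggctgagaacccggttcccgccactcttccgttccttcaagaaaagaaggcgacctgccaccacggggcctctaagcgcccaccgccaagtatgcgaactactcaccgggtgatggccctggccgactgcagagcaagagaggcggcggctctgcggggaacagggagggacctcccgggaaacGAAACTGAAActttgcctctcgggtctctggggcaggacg
Gbp2, chr2:234005477-234005776, plus strand: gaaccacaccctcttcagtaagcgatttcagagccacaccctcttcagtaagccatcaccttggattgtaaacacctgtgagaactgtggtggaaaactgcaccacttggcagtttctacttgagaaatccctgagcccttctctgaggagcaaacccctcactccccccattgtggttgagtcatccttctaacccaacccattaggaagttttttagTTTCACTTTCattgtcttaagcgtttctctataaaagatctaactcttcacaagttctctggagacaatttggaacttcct
Cxcl10, chr14:15988816-15989115, plus strand: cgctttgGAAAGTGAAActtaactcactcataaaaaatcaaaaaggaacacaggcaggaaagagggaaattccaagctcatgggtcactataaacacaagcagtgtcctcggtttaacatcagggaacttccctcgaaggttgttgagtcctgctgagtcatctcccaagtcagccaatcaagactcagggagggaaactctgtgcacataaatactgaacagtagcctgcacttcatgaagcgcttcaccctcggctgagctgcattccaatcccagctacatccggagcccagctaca

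A few antigen presentation genes were higher. Of 27 members tested (36 listed, 30 on the array), 21 had a positive log2 change, against 5234 of all 11778 genes. At an unadjusted p under 0.05, 3 were higher (11.1%, against 4.25% of all genes) and 0 were lower (0%, against 3.35%), with a median log2 change of 0.09, and 0 had an adjusted p under 0.05 in limma. Every 30W array lay above every Sal array for 6 members (22.2%, against 6.47% of all genes) and below for 0 (0%, against 7.19%). RT1-CE15, a class I molecule of the rat major histocompatibility complex, was at 8.90, 8.78 and 8.64 on the 30W arrays, against 8.41, 8.51 and 8.57 on the Sal arrays, a log2 change of 0.28 (SE 0.09, adjusted p = 0.481 in limma). RT1-CE4, its relative, was higher by 0.13 and RT1-DOa, a chain of the class II modulator, by 0.24, each with separate groups. Probes of near-identical class I genes may share signal, so the RT1 genes are not independent of each other. The list's score was 0.07, 0.01 and 0.09 on the 30W arrays, against -0.04, -0.07 and -0.00 on the Sal arrays. All 30W arrays lay above the Sal arrays, though 30W replicate 2 was the lowest of them here too. The count was 7 without Sal replicate 3, and 9 with array weights.

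Other immune and stress lists had few members past the unadjusted threshold. Of 33 inflammatory cytokine and chemokine genes, 25 had a positive log2 change and only Tnfsf10 was past it. Every 30W array lay above every Sal array for 8 of the 33 (24.2%, against 6.47% of all genes) and below for 1 (3.03%, against 7.19%). Socs3, a brake on cytokine signalling, was higher by 0.31 (SE 0.15) and at 7.13, 7.23 and 7.02 on the 30W arrays, against 6.78, 6.78 and 6.91 on the Sal arrays. None of 14 complement and acute phase genes was past the unadjusted threshold. Glucocorticoid-responsive genes had a median log2 change of 0.08 over 26 members, with 19 positive and 0 past the threshold in either direction in limma. Every 30W array lay above every Sal array for 4 of the 26 (15.4%, against 6.47% of all genes) and below for 1 (3.85%, against 7.19%). Fkbp5, the co-chaperone of the glucocorticoid receptor, was at 8.51, 8.52 and 8.62 on the 30W arrays, against 8.39, 8.47 and 8.24 on the Sal arrays. Heat shock and chaperone genes had a median of 0.04 over 32 members.

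**Figure D4:**
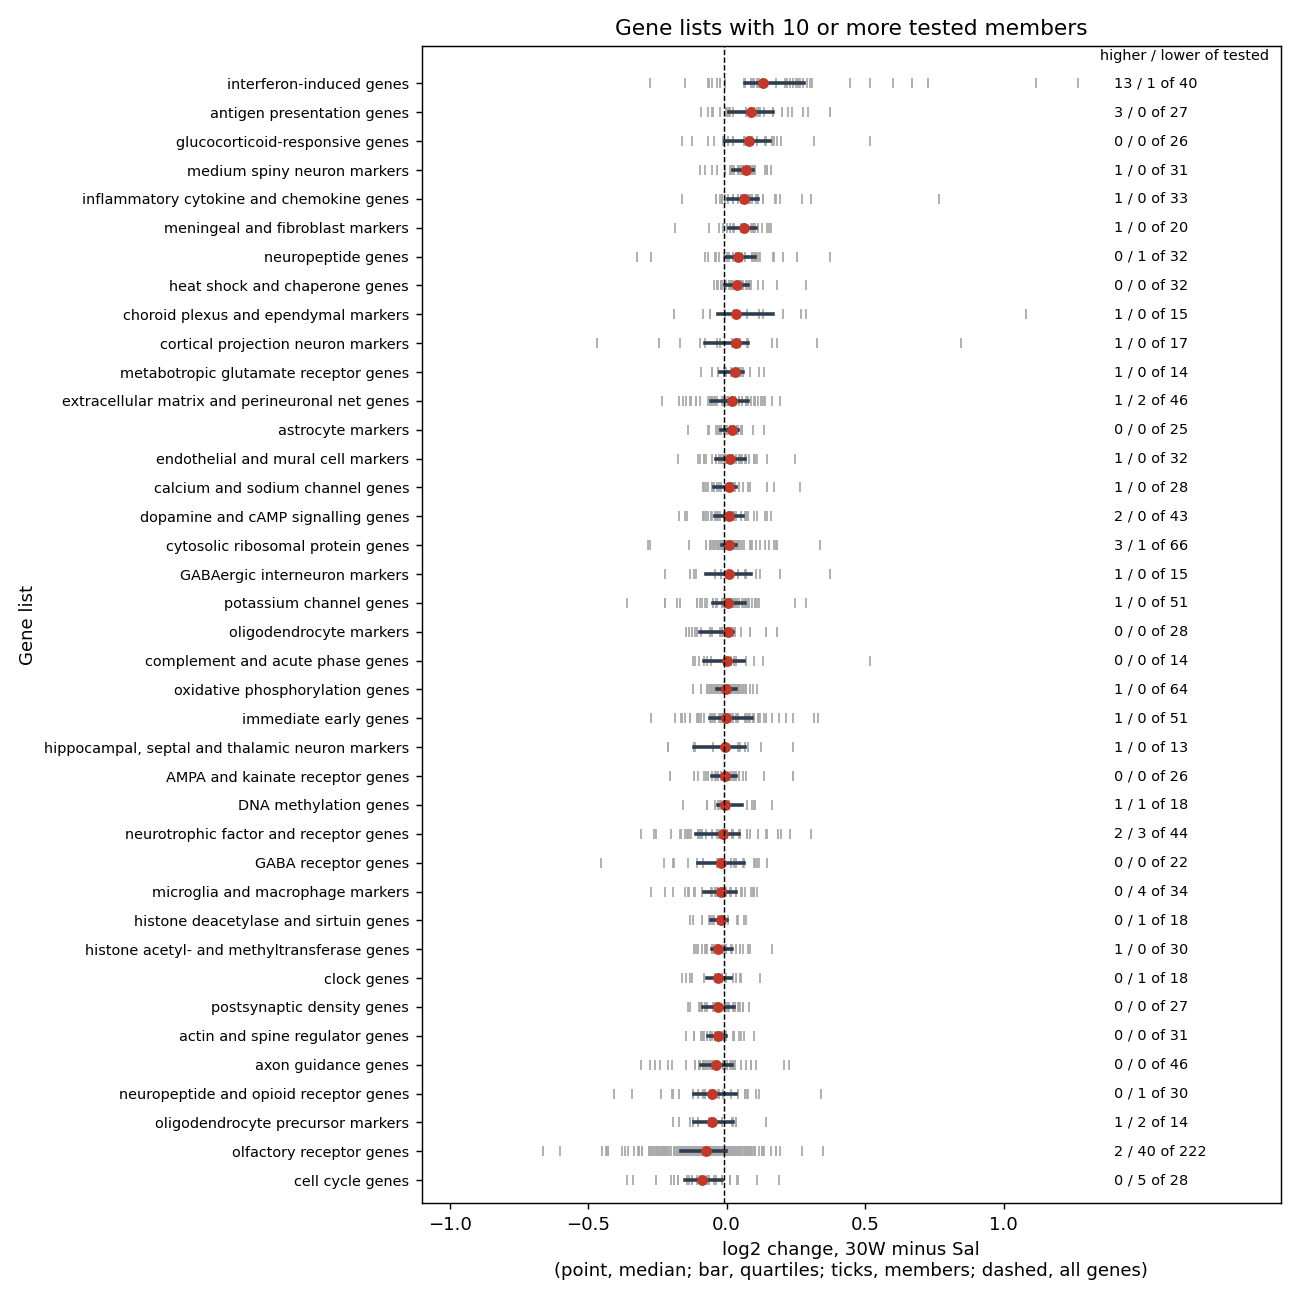
Log2 change (30W minus Sal, horizontal axis) of the members of each gene list with at least 10 tested members, with the median as a point, the quartiles as a bar, members as ticks and the median of all genes as a dashed line. Figures at the right count members higher and lower at unadjusted p under 0.05, from 13 and 1 of 40 interferon-induced genes at the top to 0 and 5 of 28 cell cycle genes at the bottom.

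Microglial genes were lower for a few members. Of 34 markers of microglia and macrophages tested, 4 were lower at an unadjusted p under 0.05 (11.8%, against 3.35% of all genes) and 0 were higher. The list went both ways, with 22 negative and 12 positive log2 changes. Every 30W array lay below every Sal array for 4 members (11.8%, against 7.19% of all genes) and above for 3 (8.82%, against 6.47%). The list's median log2 change was -0.02, and its scores were -0.04, -0.09 and -0.06 on the 30W arrays, against -0.02, -0.01 and -0.06 on the Sal arrays, which overlapped. Cx3cr1, the fractalkine receptor by which neurons restrain microglia, was at 10.26, 10.22 and 10.17 on the 30W arrays, against 10.31, 10.39 and 10.30 on the Sal arrays. Its log2 change was -0.12 (SE 0.05, adjusted p = 0.61 in limma). Csf1r, the receptor for the growth factors that keep microglia alive, was at 9.85, 9.82 and 9.87 on the 30W arrays, against 9.98, 9.95 and 10.02 on the Sal arrays. Dapp1, an adaptor of phosphoinositide signalling, was at 6.74, 6.50 and 6.67 on the 30W arrays, against 6.85, 6.90 and 6.83 on the Sal arrays, a log2 change of -0.22 (SE 0.06, adjusted p = 0.42). Cd180, a Toll-like receptor relative, was at 7.86, 7.59 and 7.61 on the 30W arrays, against 7.94, 7.92 and 7.79 on the Sal arrays.

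Most microglial markers were also below their 1W level, but 1W itself lay above Sal for this list. The list's median log2 change from Sal was 0.11 for 1W, against -0.02 for 30W, and 27, 22 and 13 of the 34 markers lay above the highest Sal array on the 1W arrays. Between 30W and 1W no gene passed the adjusted threshold (0 of 11778, 0%, with 1188 at an unadjusted p under 0.05 in limma), and the smallest adjusted p was 0.115, which Dapp1 and Cd180 both had. Cd180 was at 8.23, 8.28 and 8.09 on the 1W arrays, 0.51 above 30W (SE 0.08), and Dapp1 was 0.38 above 30W (SE 0.06). Of the 34 markers, 32 were lower in 30W than in 1W, 9 of them at an unadjusted p under 0.05, against 5.89% of all genes. The count of 4 against Sal was 1 without 30W replicate 2, and also 1 without 30W replicate 3. It was 2 without Sal replicate 1 or Sal replicate 2 and 2 after median centring, which moved the list's median to 0.01.

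**Figure D5:**
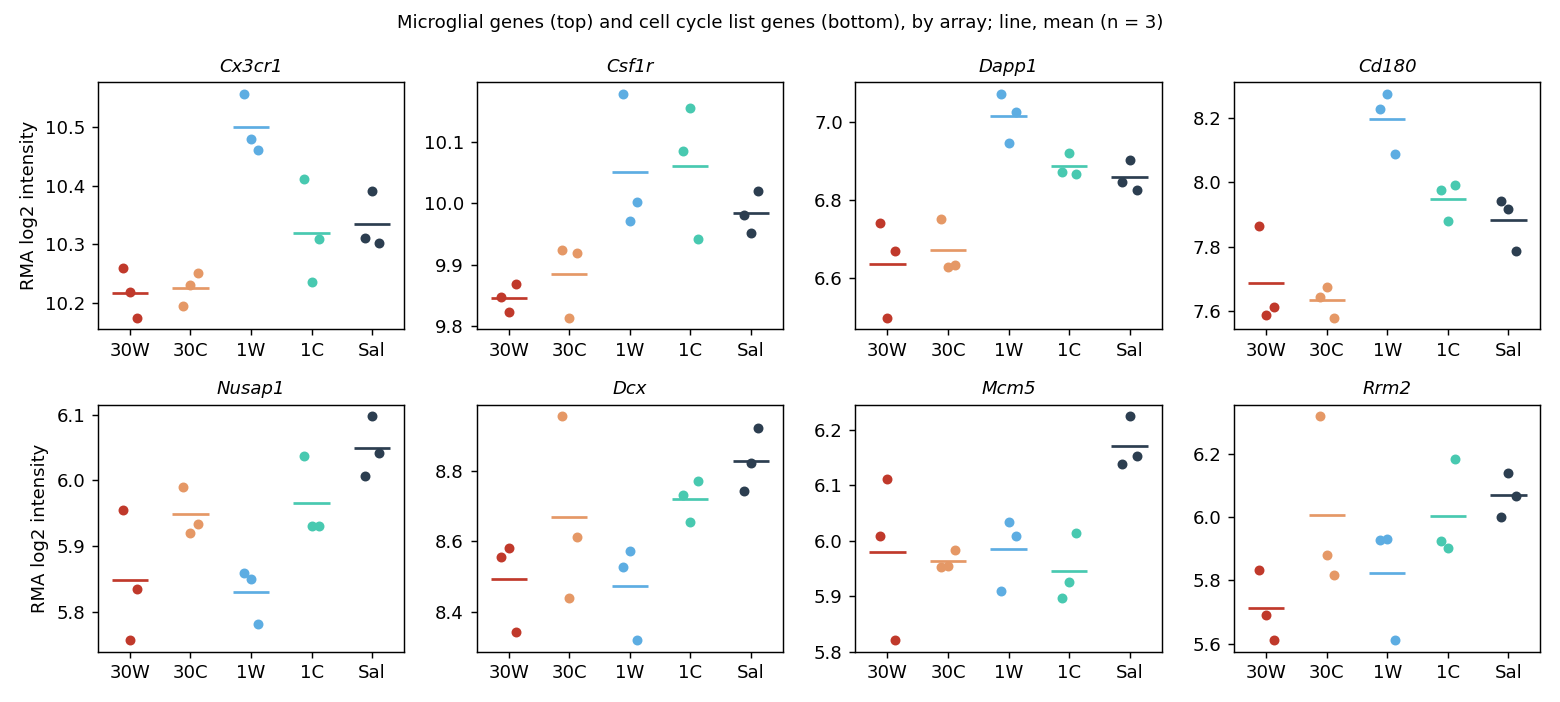
RMA log2 intensity by array (vertical axes, each with its own scale) in 30W, 30C, 1W, 1C and Sal for 4 microglial genes (upper) and 4 genes of the cell cycle list (lower); points are arrays and lines are means (n = 3). Cx3cr1 lies between 10.17 and 10.26 in 30W and between 10.30 and 10.39 in Sal, and Dcx between 8.34 and 8.58 in 30W and between 8.74 and 8.92 in Sal.

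A few genes of dividing and immature cells were lower. On the cell cycle list, which also holds markers of immature neurons and progenitors, 28 of 39 genes were tested and 22 had a negative log2 change, against 6544 of all 11778 genes. At an unadjusted p under 0.05, 5 were lower (17.9%, against 3.35%) and 0 were higher, with a median log2 change of -0.09, and 0 had an adjusted p under 0.05 in limma. Dcx, the doublecortin of migrating young neurons, was at 8.56, 8.58 and 8.34 on the 30W arrays, against 8.74, 8.82 and 8.92 on the Sal arrays. Its log2 change was -0.34 (SE 0.11, adjusted p = 0.492 in limma). The 1W arrays, between 8.32 and 8.57, were as low for Dcx as the 30W arrays. Rrm2, a subunit of ribonucleotide reductase that supplies DNA precursors, was at 5.83, 5.69 and 5.61 on the 30W arrays, against 6.00, 6.14 and 6.07 on the Sal arrays. Rrm1, its partner, was lower by 0.13 (SE 0.06), with overlapping groups. The replication helicase subunit Mcm5 and the spindle protein Nusap1 were lower by 0.19 and 0.20, and 18 of the 28 members were in the dimmest part. The count was 8 without Sal replicate 3 and 3 without 30W replicate 3.

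Oligodendrocyte precursor markers were mixed. Of 14 tested, Vcan and Bmp4 were lower at an unadjusted p under 0.05 (14.3%, against 3.35% of all genes) and Matn4 was higher (7.14%, against 4.25%), with a median log2 change of -0.05. Vcan, the proteoglycan versican, was at 8.04, 8.13 and 8.13 on the 30W arrays, against 8.31, 8.30 and 8.21 on the Sal arrays, and Bmp4, a growth factor of committed precursors, at 8.35, 8.06 and 8.32 on the 30W arrays, against values between 8.42 and 8.44 on the Sal arrays. Matn4, a matrix protein, was at 5.98, 6.02 and 6.08 on the 30W arrays, against values between 5.85 and 5.92 on the Sal arrays. The count of 2 lower members was 0 without Sal replicate 1 and 4 without Sal replicate 3. No marker of mature oligodendrocytes (0 of 28) or of astrocytes (0 of 25) had an unadjusted p under 0.05 in limma.

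Olfactory receptor genes were 40 of the 395 lower genes. These receptors detect odours in the nose, and of the 1104 genes on the array only 222 passed the signal filter, 213 of them in the dimmest part. At an unadjusted p under 0.05, 40 of the 222 were lower (18%, against 3.35% of all genes) and 2 were higher. Their median log2 change was -0.07, whereas that of the dimmest part as a whole was 0.04. Or4a72 was at 6.61, 6.47 and 6.58 on the 30W arrays, against 7.08, 7.43 and 7.15 on the Sal arrays, a log2 change of -0.66 (SE 0.14, adjusted p = 0.328 in limma). Or5p60b was at 6.63, 6.44 and 6.38 on the 30W arrays, against 6.97, 6.99 and 7.28 on the Sal arrays, and Or13a18b, Or1ad5 and Or51f2 were lower by 0.44, 0.28 and 0.23. The list's score was 0.01, 0.03 and -0.05 on the 30W arrays, against 0.07, 0.02 and 0.18 on the Sal arrays, so Sal replicate 3 was the highest and the groups overlapped. On the 1W arrays the score was -0.12, -0.06 and -0.07. The signal filter changes both this count and the number of receptor genes tested. With no filter, 177 of all 1104 were lower, beside 40 of 222 here. With the filter at the 50th percentile, which leaves fewer to test, 4 were lower. These counts are therefore not read as a change in the share. Among the 222 genes, the count of 40 was 17 without Sal replicate 3, 26 without 30W replicate 3, 25 after median centring and 73 after a further quantile normalization. These receptors share sequence, and their probes can share signal.

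The genes of striatal neurons that are most studied in cocaine withdrawal had small log2 changes. Drd1 and Drd2, the dopamine receptors of the direct and indirect pathways, had log2 changes of 0.16 (SE 0.17, adjusted p = 0.903 in limma) and 0.07 (SE 0.15, adjusted p = 0.962). The AMPA receptor subunits Gria1 and Gria2 were at 0.04 (SE 0.06) and 0.03 (SE 0.05). Gria1 was at 11.37, 11.42 and 11.35 on the 30W arrays, against 11.30, 11.41 and 11.33 on the Sal arrays, and the groups overlapped. Gria2 was at 11.82, 11.80 and 11.81 on the 30W arrays, against 11.72, 11.79 and 11.84 on the Sal arrays. Grm5, the metabotropic glutamate receptor mGluR5, was at 0.06 (SE 0.08). The 95% intervals of the log2 change were -0.09 to 0.17 for Gria1, -0.08 to 0.14 for Gria2, -0.12 to 0.24 for Grm5, and -0.21 to 0.53 for Drd1.

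The neurotrophin Bdnf was dim, at 6.00, 6.06 and 6.00 on the 30W arrays, against 5.69, 6.20 and 6.17 on the Sal arrays, a log2 change of -0.00 (SE 0.15). The precursors of the opioid peptides dynorphin and enkephalin, Pdyn and Penk, both had a log2 change of 0.10, and Cartpt, the precursor of CART peptide, 0.03 (SE 0.20). Esr1, an oestrogen receptor, was higher by 0.15 (SE 0.10) with overlapping groups. Cdk5, a kinase of dopamine signalling, was at 10.13, 10.09 and 10.12 on the 30W arrays, against 10.19, 10.24 and 10.22 on the Sal arrays, so all its 30W arrays lay below Sal, with a log2 change of -0.10 (SE 0.06, adjusted p = 0.751). Fosb was not analysed here. Medium spiny neuron markers as a list had 26 of 31 log2 changes above 0 and a median of 0.07, with 1 member past the unadjusted threshold. Its scores, 0.04, -0.04 and 0.07 on the 30W arrays, lay within those of Sal, at -0.06, 0.08 and -0.12.

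Synaptic and signalling lists had at most 2 members each past the unadjusted threshold in a direction. None of 26 AMPA and kainate receptor genes, 27 postsynaptic density genes, 31 actin and spine regulators, 22 GABA receptor genes or 46 axon guidance genes had an unadjusted p under 0.05 in limma. Of 9 NMDA receptor genes, Grin3b, a subunit that lowers calcium entry, was at 6.23, 6.37 and 6.18 on the 30W arrays, against values between 5.94 and 5.96 on the Sal arrays, a log2 change of 0.31 (SE 0.08, adjusted p = 0.398). Srr, the enzyme that makes the co-agonist D-serine, was lower by 0.11 (SE 0.05). Homer3, a scaffold of group I metabotropic receptors, was higher by 0.12 (SE 0.05). In dopamine signalling, Drd4 and the G protein regulator Rgs14 were each higher by 0.14 (SE 0.05), and 2 of 43 members were past the threshold.

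Ion channel and peptide lists had 1 member or none past the threshold in each direction. Of 30 neuropeptide and opioid receptor genes, 5 had every 30W array below every Sal array (16.7%, against 7.19% of all genes). For 0 of the 30 every 30W array lay above (0%, against 6.47%). Kcnj8, a potassium channel subunit of pericytes, was at 7.26, 7.54 and 7.49 on the 30W arrays, against 7.13, 7.23 and 7.19 on the Sal arrays, and as high on the 1W arrays, between 7.42 and 7.51. Ryr1, a calcium release channel, was at 7.28, 7.59 and 7.49 on the 30W arrays, against 7.17, 7.26 and 7.12 on the Sal arrays. Grp, gastrin-releasing peptide, was at 6.39, 6.65 and 6.42 on the 30W arrays, against 6.88, 6.85 and 6.70 on the Sal arrays. Hcrtr1, the orexin receptor studied in drug seeking, was at 6.93, 6.74 and 6.82 on the 30W arrays, against 7.03, 7.04 and 7.01 on the Sal arrays, a log2 change of -0.20 (SE 0.08, adjusted p = 0.562 in limma).

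Growth factor and matrix lists had few members past the unadjusted threshold. Of 44 neurotrophic factor and receptor genes, 2 were higher (4.55%, against 4.25% of all genes) and 3 lower (6.82%, against 3.35%). Every 30W array lay below every Sal array for 8 of the 44 (18.2%, against 7.19% of all genes) and above for 5 (11.4%, against 6.47%). Of 46 extracellular matrix genes, 1 was higher (2.17%) and 2 were lower (4.35%), shares near those of all genes. Vegfa, the main angiogenic factor, was at 9.67, 9.64 and 9.73 on the 30W arrays, against 9.48, 9.56 and 9.43 on the Sal arrays, a log2 change of 0.20 (SE 0.08, adjusted p = 0.569 in limma). Col4a1, a collagen of the vascular basement membrane, was at 6.86, 6.84 and 6.75 on the 30W arrays, against 6.67, 6.63 and 6.56 on the Sal arrays. Igfbp5, an insulin-like growth factor binding protein, was at 9.38, 9.27 and 9.14 on the 30W arrays, against 9.53, 9.54 and 9.47 on the Sal arrays. Spon1, a matrix protein that guides axons, was at 9.76, 9.78 and 9.68 on the 30W arrays, against 10.09, 9.96 and 9.86 on the Sal arrays, and Egfr was lower by 0.14. Endothelial and mural cell markers as a list had 17 positive and 15 negative members of 32, with Kcnj8 the only one past the unadjusted threshold.

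Chromatin, clock and activity lists gave single genes. Gadd45b, linked to DNA demethylation, was at 8.11, 8.12 and 8.34 on the 30W arrays, against 8.05, 8.04 and 7.99 on the Sal arrays, and was the only member of 51 immediate early genes past the unadjusted threshold. Apobec1, a cytidine deaminase, was lower by 0.16 (SE 0.05), and Hdac6, the cytoplasmic deacetylase, by 0.12 (SE 0.05). Suv39h2, a histone H3 methyltransferase, was higher by 0.16 (SE 0.07). Per2 of the clock was lower by 0.15 (SE 0.07) with overlapping groups, and Nfil3, a repressor of the clock output, was at 7.39, 7.43 and 7.41 on the 30W arrays, against 7.49, 7.52 and 7.62 on the Sal arrays. Per2 had 30W arrays between 8.64 and 8.75, and Sal arrays from 8.68 to 8.97.

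Among housekeeping lists, cytosolic ribosomal protein genes had 3 of 66 members higher (4.55%, against 4.25% of all genes) and 1 lower (1.52%, against 3.35%), and oxidative phosphorylation genes 1 of 64 higher (1.56%). Rpl13 was at 10.77, 10.86 and 10.92 on the 30W arrays, against 10.49, 10.56 and 10.48 on the Sal arrays, a log2 change of 0.34 (SE 0.10, adjusted p = 0.447 in limma), while Rpl15 was lower by 0.28. The log2 change of Rpl13 was as low as 0.14 across the alternative settings. Rps3 was higher by 0.17 (SE 0.08). Ribosomal protein genes have many processed copies, so probes for 1 of them can pick up others. The lists not described in detail had medians between -0.05 and 0.08 where 10 or more members were tested, and no more than 7.69% of members higher or 6.82% lower.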

How the data were processed

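RNA from the nucleus accumbens was hybridised to Affymetrix rat arrays, 1 per sample. The deposited table holds log2 values, which the authors computed by RMA per the submitters' processing notes. Neither software nor version nor filter is named in the sources used here. RMA brings the arrays close to 1 distribution, so a shift shared by most genes would be largely hidden. The deposited values were not fully equal, with medians over all probe sets from 6.885 (1W replicate 3) to 6.966 (30W replicate 2). Per the labels' protocols a kit for 3′ arrays was used, whereas the probe set identifiers belong to a whole-transcript array. Values start from this table, not from scans.

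It had 28826 probe sets. The platform annotation gave 15209 of them 1 symbol and 306 several, and 13311 were unnamed here. Of those with 1 symbol, 15178 were matched by Entrez ID to RefSeq (GRCr8), which was used for names and promoters. Each of 14497 genes was represented by its probe set of highest mean, with 494 genes having a choice. A gene was tested if it exceeded an array's 30th percentile on 3 arrays or more, which 11778 genes did.

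Groups came from the labels. One linear model over all 15 arrays, with the 5 groups as the only term, was fitted by lmFit and eBayes (limma 3.58.1, R 4.3.3). It had 10 residual and 3.44 prior degrees of freedom. Tests were two-sided, with Benjamini-Hochberg adjustment over all genes and a threshold of 0.05. The fit was tested on simulated data with independent errors for each gene, which checks the code and not the tissue or array differences seen here. Only 3 arrays a group limit the precision.

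The comparison, the 42 gene lists and the tests were chosen with earlier results of these data known. Genes were named by a rule. Per direction it took the 12 smallest p-values and the 6 largest changes at an unadjusted p under 0.05, both among genes whose groups did not overlap. It also took up to 3 members of each list with the smallest p, a fixed set of genes of interest and defining cell markers. The other genes named were chosen after their values were seen: the remaining interferon, antigen presentation, cell cycle and microglial genes past the unadjusted threshold, the genes with a change of 1.5-fold or more, Cxcl10, Nfil3, Mx2, Isg15, Oas1a and Stat2. Replicate numbers were not used to pair the arrays. Deviations of same-numbered 30W and Sal arrays correlated at -0.11, -0.13 and -0.09, and those of differently numbered arrays between -0.04 and 0.14. Deviations from a mean of 3 arrays are tied to each other, so these values cannot decide whether the numbers mark shared handling.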

Additional observations from a re-analysis of the deposited data

Results flagged for a closer look

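Probe sets without a single gene symbol lie outside the comparison of genes. In a limma fit over 20857 probe sets, 2 of the 8483 such probe sets tested had an adjusted p under 0.05. Probe set 10897891 was at 7.98, 8.10 and 8.03 on the 30W arrays, against 7.48, 7.49 and 7.44 on the Sal arrays, a log2 change of 0.57 (SE 0.064, adjusted p = 0.0114). It was between 7.48 and 7.57 on the 1W arrays, and between 7.72 and 7.91 on the 30C arrays. Probe set 10892499 was at 5.81, 5.82 and 5.76 on the 30W arrays, against 6.72, 6.46 and 6.71 on the Sal arrays, a log2 change of -0.83 (SE 0.098, adjusted p = 0.0114). When each 30W or Sal array was left out in turn, the adjusted p of the first ran from 0.033 to 0.084 and that of the second from 0.0177 to 0.0876. The first passed only without Sal replicate 2 or at the limit of 0.05 without Sal replicate 1, and the second only without Sal replicate 2. Their genes are not named in the annotation used here.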

How the results depend on the processing

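No gene had an adjusted p under 0.05 in limma under any of 25 alternatives. The smallest adjusted p was 0.0868 with array weights and 0.0896 without Sal replicate 3. Replicate number as a block, although the labels do not say that the numbers pair the arrays, gave 567 higher genes, 413 lower genes and 0 past the adjusted threshold. The 500 higher genes became 224 with the filter at the 50th percentile and 160 at an unadjusted p under 0.01, and ran from 363 to 539 when 1 array was left out. The 395 lower genes became 196 after median centring, 823 with array weights and 76 at p under 0.01, and ran from 248 without Sal replicate 2 to 599 without Sal replicate 3. Genes with every 30W array above Sal became 373 under the stricter filter and 1235 after centring, and ran from 1080 to 1414 with 1 array fewer, where separation is easier. Those below Sal became 480 after centring and ran from 1124 to 2178. Of 100 genes followed, 92 kept their sign throughout. Most of the 100 were named for a small p or separate groups, or after their values were seen. A gene with separate groups cannot change sign when 1 array is left out, so the count of 92 was largely fixed by the choice of genes. The other 8 were all fixed genes of interest or defining markers. For these 8, the leave-one-out extremes and the other alternatives that changed sign follow. Not every leave-one-out fit with a changed sign is listed. The sign was kept in 19 of 24 alternatives for Bdnf, 20 of 25 for Cartpt and 21 of 25 for Hbb. Leaving out 1 array, Gria2 ran from -0.003 (without Sal replicate 1) to 0.057, Bdnf from -0.167 to 0.086 (without Sal replicate 2), Cartpt from -0.08 (without 30W replicate 1) to 0.243, Slc17a7 from -0.688 (without Sal replicate 1) to 1.741, Gfap from -0.061 to 0.001 (without 30W replicate 2), Ttr from -0.302 (without 30W replicate 3) to 1.868 and Hbb from -0.152 to 0.139 (without 30W replicate 2). Median centring gave 0.024 for Bdnf and 0.009 for Hbb, quantile normalization 0.001 for Hbb, array weights -0.033 for Cartpt, and the mean of its probe sets -0.084 for Esr1. The cause of these sign changes was not tested, apart from the arrays named. A kept sign did not mean a kept size. The lowest log2 change across the alternatives was 0.182 for Pde11a (0.435 in the main fit) and 0.202 for Chchd2l3 (0.371). It was 0.109 for Cybrd1 (0.256) and 0.144 for Rpl13 (0.338). Other probe sets of these genes, where there were any, are not shown. No detection call was available for dim signals, and background was not measured here.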
